A study of Homo sapiens with 6 samples.

Results

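The genes described here are 43 human genes of DNA replication and of the step from G1 into S phase, taken by symbol from the authors' gene table out of 57773 genes counted. They cover origin licensing, the replication fork, nucleotide supply, G1/S control, histone supply and repair at forks. A further named gene, CASP8AP2, had no row with that symbol in the authors' table and was read from the counts by its identifier. It is described apart and enters no count below. All 43 genes passed the filter on low counts, with at least 153 counts in every library.

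RNA was measured by polyA RNA-seq in HAP1, a human cell line with a nearly haploid genome whose parent line came from chronic myeloid leukaemia. The control group was wild type (n = 3 libraries). The other group carried the substitutions Y226A and F228A in CTCF (n = 3 libraries), the zinc-finger protein that holds the ends of many chromatin loops together with cohesin. The mutant was made with Cas9, a guide to exon 1 and a repair oligonucleotide that also held a silent change, and transfected clones were selected with puromycin and checked by Sanger sequencing. The labels list this protocol for both groups and do not say whether the wild-type cells went through transfection and selection, or whether the mutant libraries came from more than 1 clone. An effect of the substitutions and the state of a selected clone cannot be told apart for that reason. Separate cultures are not named either, and the p-values thus refer to the spread among these 6 libraries, which may be technical.

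Before S phase, CDC6 and CDT1 load the ring of MCM2 to MCM7 at origins, and geminin blocks CDT1 so that origins are loaded once per cycle. CDC45 and the GINS complex turn the ring into an active helicase, and polymerases then copy both strands with the sliding clamp PCNA. Most of these genes are transcribed in late G1 and S phase under E2F factors, which the retinoblastoma protein holds back until cyclin D and cyclin E kinases inactivate it. Their summed mRNA is widely used as a sign of how many cells in a culture are in S phase.

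The libraries held 7764009 to 9610028 gene counts, and 22.4 to 24.3% of all counted reads fell in closing rows without a gene. Correlations of log2 CPM (counts scaled to library size) over genes, which are no independent replicates, were 0.992 to 0.993 for libraries of the same genotype and 0.968 to 0.970 for libraries of different genotype. The edited gene was measured in each library. CTCF stood at 106, 111 and 111 CPM in the wild type and 131, 139.6 and 135 CPM in the mutant (edgeR adjusted p = 4.20e-04), and no mutant library overlapped the wild type. Of 14 blood cell markers, 6 were at 0 counts in every library, among them GATA1, HBG1, MPO, PTPRC and SPI1. The summed level of the list was 94.7 to 104 CPM in the wild type and 127 to 133 CPM in the mutant. Of the 4 tested blood markers TAL1 rose (31.9 ± 2.49 to 67.5 ± 3.57 CPM), RUNX1 fell (8.90 ± 1.11 to 5.84 ± 0.332 CPM), and GATA2 and KIT were not called (log2 -0.01 and 0.07). Epithelial markers summed to 59.8 to 64.2 and 63.0 to 72.4 CPM, and mesenchymal markers to 524 to 589 and 389 to 429 CPM. Members moved in both directions here too: EPCAM and ESRP1 rose and KRT8 fell, while VIM fell (488 ± 34.1 to 314 ± 14.9 CPM) and the less abundant PDGFRA, COL1A1 and ACTA2 rose. The part of such cell-state markers in the results below was not tested. BCR and ABL1, the genes joined in the parent leukaemia, summed to 46.2 to 49.8 and 38.4 to 40.6 CPM.

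For most of the 43 genes, mRNA differed little between the genotypes. Only 5 of them are G1/S regulators. Of 32 other G1/S regulators, 9 rose (28.1%, against 11.9% of all tested genes), as given below. RRM2, ATAD2 and CCNE2 rose and UNG and NASP fell at an edgeR quasi-likelihood adjusted p under 0.05, and 38 of the 43 genes were not called. The 5 called genes are 11.6% of the 43, against 21.2% of all 14835 tested genes called. Among the 8223 tested genes at least as abundant as the lowest of the 43, the called share was 23.7%. By direction, 6.98% of the 43 rose, against 11.9% of tested genes, and 2 of the 43 fell, against 9.26% of tested genes. An unadjusted p under 0.05 was found for 10 of the 43 and for 32.6% of tested genes. The median log2 fold change of the 43 was 0.05, with 31 above and 12 below 0, and the median of all tested genes was -0.00097. Their median absolute log2 fold change was 0.097, against 0.15 for all tested genes. The tested genes were less abundant (median 28.8 CPM, against 98.5 CPM for the 43), and this median was not matched for abundance. Leaving out wild-type replicate 2 gave 5 genes that rose, and leaving out mutant replicate 1 gave 6. In bulk RNA, fewer cells of a kind (here cells in S phase) and less RNA per cell cannot be told apart.

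The depth allowed narrow limits on each gene. Standard errors of the log2 fold change ran from 0.0439 (MCM7) to 0.100 (CCNE1). For all 43 genes the 95% interval of the log2 fold change lay inside 1.5-fold in either direction. The outermost bounds were -0.47 for UNG and 0.53 for CCNE2. The same held for 70.5% of all tested genes and for 93.8% of tested genes at least as abundant as the lowest of the 43. For 13 of the 43 genes the wild-type and mutant ranges lay apart, 10 higher and 3 lower in the mutant, which is 30.2% against 35.5% of all tested genes (19.0% higher and 16.5% lower). A gene that was not called is not shown to be equal, but a change of 1.5-fold lies outside its interval.

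**Figure D1:**
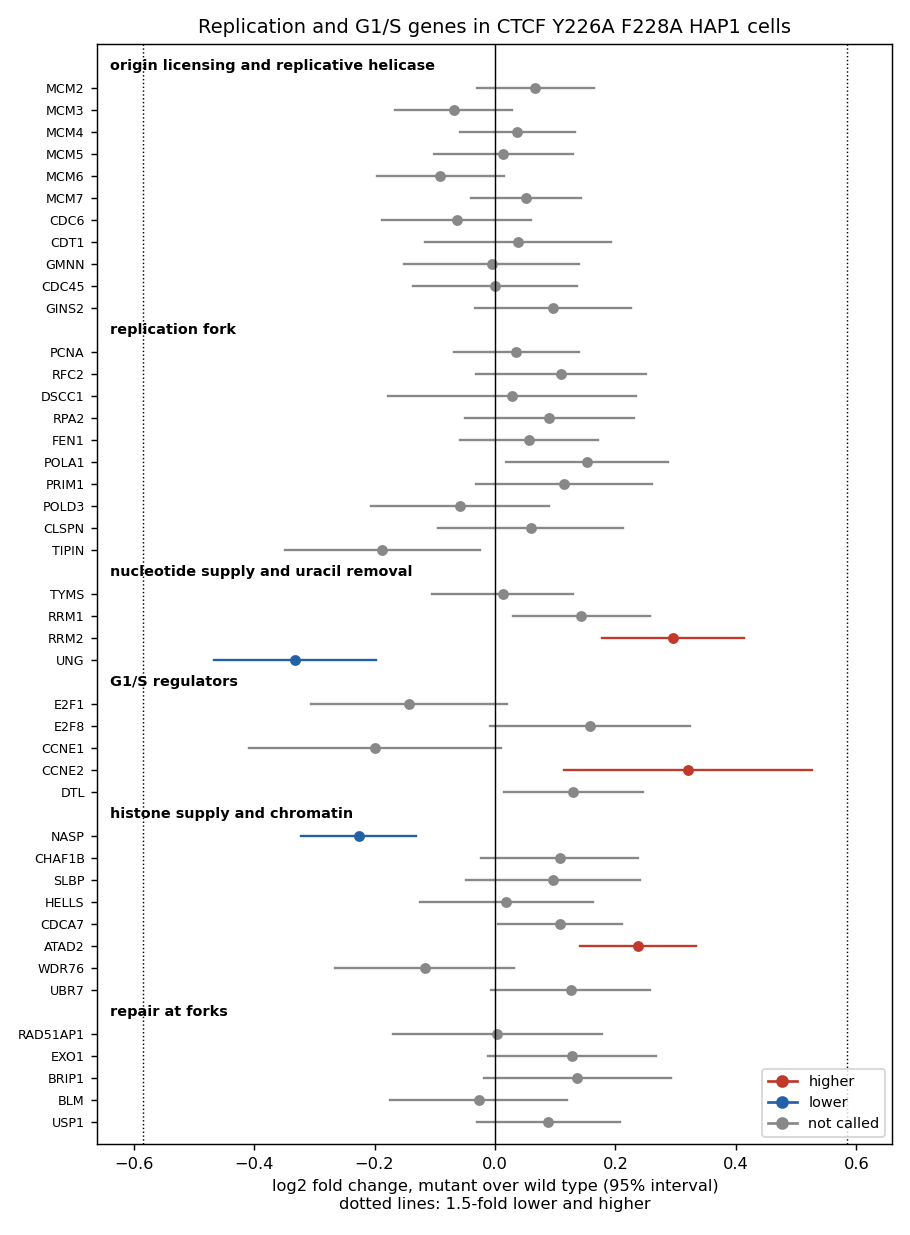
Log2 fold change of mutant over wild type for the 43 genes by role, with its 95% interval from the edgeR fit on 3 libraries per genotype. Red marks genes that rose, blue genes that fell and grey genes not called, and every interval ends inside the dotted lines at 1.5-fold.

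The summed level of the 43 genes was 7565, 7726 and 7479.8 CPM in the wild-type libraries. In the mutant libraries it was 7596, 7809.7 and 7948 CPM. The lowest mutant library lay below the highest wild-type library, so the sums overlapped, and the mutant mean was 2.56% above the wild-type mean. By role, the smallest difference of summed means was in the licensing and helicase genes, at 0.604% above the wild type. The largest was in nucleotide supply and uracil removal, at 8.47%. The sums of that role also overlapped (874 to 969 CPM in the wild type and 937 to 1034 CPM in the mutant). Within it RRM2 rose, UNG fell, and RRM1 and TYMS were not called.

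Promoter letters were read as a description. Most of these genes are under E2F factors, as stated above. A high share of E2F words thus follows from the kind of gene and is no independent finding. E2F factors bind DNA words such as TTTCCCGC, TTTCGCGC, TTTGCCGC and TTTGGCGC. RefSeq promoter sequences on GRCh38.p14, from 250 bases before to 50 after a start, were at hand for 34 of the 43 genes. MCM4, MCM5, DSCC1, RPA2, POLD3, E2F8, CCNE2, ATAD2 and WDR76 had none. At least 1 of these 4 words, on either strand, stood in the promoters of 20 of the 34 genes (58.8%). The share was 3.99% of all 27305 genes with such promoters (1090 genes), and 855 of the 15842 protein-coding ones held such a word. The CCAAT word, bound by NF-Y, was found in 70.6% of the 34 and in 39.7% of all genes. The word TTTGAA, known as the CHR element of G2/M promoters, was found in 11.8% against 18.2%. Words can overlap on opposite strands, as in MCM6. A core word of the CTCF motif was found in 0 of the 34 promoters and in 2.97% of all genes, which says only that these letters are not in this window. A match describes letters and does not show binding.

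These stretches show such words in their setting, for a subunit pair of the MCM ring, for the CDT1 inhibitor geminin, for the clamp, for a polymerase subunit and for UNG, the only one with such a word of the 3 called genes that had a promoter sequence. The capitals mark the E2F words and each stretch is given 5′ to 3′ on the gene's strand. Each lies before a RefSeq start and outside annotated exons (for UNG, before the later of its listed starts). For GMNN, the gene start in GENCODE v29 lies before the stretch. The MCM3 stretch is chr6:52284882-52284956 (minus), MCM6 is chr2:135876486-135876573 (minus) and GMNN is chr6:24775293-24775380 (plus). PCNA is chr20:5126634-5126721 (minus), POLA1 is chrX:24693741-24693828 (plus) and UNG is chr12:109098069-109098117 (plus), all on GRCh38.p14.
MCM3: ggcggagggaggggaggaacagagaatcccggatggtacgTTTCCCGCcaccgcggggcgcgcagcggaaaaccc
MCM6: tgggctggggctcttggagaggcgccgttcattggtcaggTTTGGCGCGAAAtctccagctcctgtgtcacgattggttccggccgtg
GMNN: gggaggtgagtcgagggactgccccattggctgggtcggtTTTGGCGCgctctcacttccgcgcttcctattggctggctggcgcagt
PCNA: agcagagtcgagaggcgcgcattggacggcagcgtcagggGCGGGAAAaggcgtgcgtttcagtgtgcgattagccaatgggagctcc
POLA1: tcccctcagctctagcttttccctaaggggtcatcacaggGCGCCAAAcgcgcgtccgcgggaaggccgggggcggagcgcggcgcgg
UNG: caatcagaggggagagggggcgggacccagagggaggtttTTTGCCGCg

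Among the 20 genes with an E2F word, edgeR called 0 higher and 1 lower (UNG), with a median log2 fold change of 0.04. Among the 14 genes without one, 1 rose (RRM2) and 1 fell (NASP), with a median of 0.09. CCNE2 and ATAD2, which also rose, had no promoter sequence and could not be placed in either set. Over all tested genes, edgeR called 11.9% higher and 9.26% lower. The difference between these sets was not tested, and so few calls cannot set them apart.

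None of the 11 licensing and helicase genes was called by edgeR, DESeq2 or limma-voom, against 21.2% of all tested genes called by edgeR. An unadjusted p under 0.05 was found for 0 of the 11, against 32.6% of all tested genes. So short a list cannot be set apart by such counts. The log2 fold changes of the 11 ran from -0.09 (MCM6) to 0.10 (GINS2), and no interval reached beyond -0.20 or 0.23. MCM7, a subunit of the helicase ring, stood at 617, 614 and 612 CPM in the wild type and 644, 624 and 642 CPM in the mutant. Its libraries did not overlap, but its difference was small (log2 0.05, SE 0.0439, edgeR adjusted p = 0.457). MCM2, MCM3, MCM4 and MCM5 of the same ring stood at 393 ± 13.6, 418 ± 4.78, 606 ± 17.5 and 206 ± 13.9 CPM in the wild type. Their mutant means were 411 ± 6.08, 399 ± 13.96, 622 ± 17.3 and 208 ± 3.23 CPM, log2 fold changes of 0.07, -0.07, 0.04 and 0.01, and all 4 overlapped. MCM6, another ring subunit, stood at 418, 443 and 403 CPM against 379, 394 and 415 CPM, which overlapped.

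The loading factors and their inhibitor also overlapped between genotypes. CDC6, the ATPase that recruits the ring, went from 126 ± 4.72 to 121 ± 5.53 CPM, a log2 fold change of -0.06. CDT1, the ring's loader, went from 104 ± 9.03 to 107 ± 9.95 CPM (0.04). GMNN, which encodes geminin, went from 91.0 ± 0.935 to 90.8 ± 8.77 CPM (mean ± SD, n = 3 each). The helicase activators CDC45 and GINS2 stood at 80.2 ± 3.81 and 119 ± 2.53 CPM in the wild type. In the mutant they stood at 80.2 ± 1.65 and 127 ± 9.66 CPM. The mutant SD of geminin came from a spread of 82.6 to 100.04 CPM, while its wild-type libraries lay between 90.1 and 92.0 CPM.

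Levels of different genes were compared as CPM per kilobase of annotated exon. Although the MCM ring holds its subunits in equal number, their mRNAs were not equal. In the wild type MCM7 was highest of the ring at 168 ± 0.780 CPM per kilobase. MCM4 (139.6 ± 4.03) and MCM3 (130.2 ± 1.49) followed. MCM6 (113 ± 5.44) and MCM2 (108 ± 3.74) did not differ beyond the sum of their SDs, whereas the other steps in this order did. MCM5 was lowest at 58.2 ± 3.94. In the mutant the values were 174, 143, 124, 106, 114 and 58.8 for MCM7, MCM4, MCM3, MCM6, MCM2 and MCM5, so that only MCM6 and MCM2 changed places. Exon length was taken from the annotation, and the order rests on it.

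**Figure D2:**
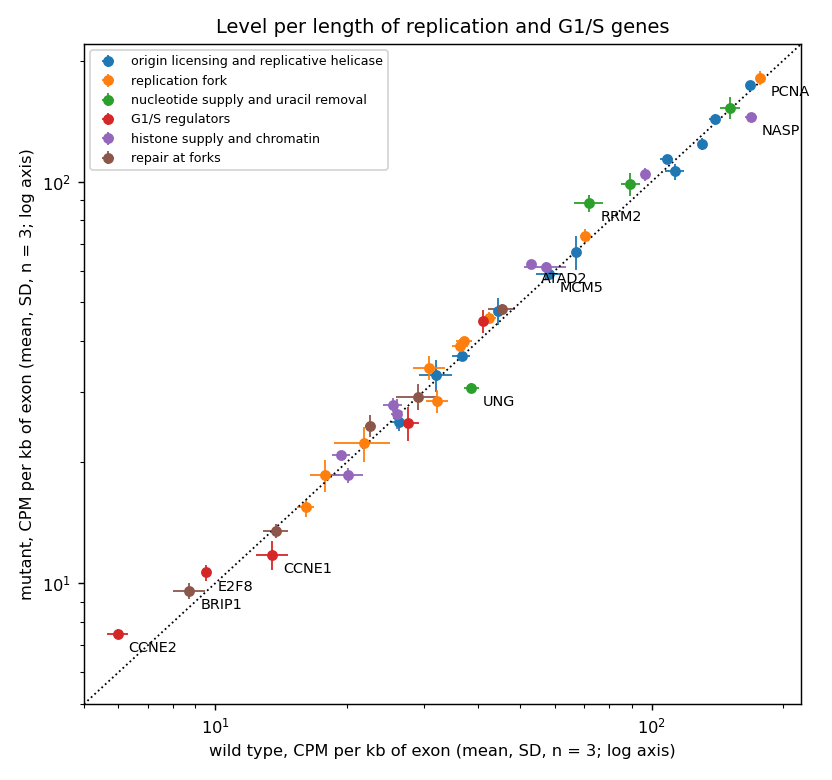
Level per kilobase of exon in the mutant against the wild type for the 43 genes (mean and SD, n = 3 each, both axes logarithmic), coloured by role. Points follow the dotted line of equality over the range from 5.98 (CCNE2) to 177 (PCNA) CPM per kilobase in the wild type. Of the called genes, UNG and NASP lie below it and RRM2, ATAD2 and CCNE2 above it.

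Of the 10 fork genes, edgeR, DESeq2 and limma-voom each called 0, while 1 higher and 1 lower had an unadjusted p under 0.05. Over all tested genes, edgeR called 21.2%, and 32.6% had such an unadjusted p. PCNA, the sliding clamp and the most abundant of the 43 per kilobase, stood at 262, 259 and 259 CPM in the wild type and 255, 268 and 277 CPM in the mutant. These ranges overlapped (log2 0.04, interval -0.07 to 0.14). RFC2 and DSCC1, of the clamp loaders, went from 64.9 ± 2.89 to 70.1 ± 1.19 CPM without overlap (log2 0.11) and from 50.8 ± 7.45 to 51.5 ± 5.06 CPM (0.03). RPA2, of the single-strand binding complex, went from 73.5 ± 3.20 to 78.4 ± 3.49 CPM (0.09). FEN1, the flap nuclease that trims Okazaki fragments, went from 162 ± 4.52 to 168 ± 6.996 CPM (0.06).

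POLA1, the catalytic subunit of the polymerase that starts each strand, stood at 174, 181 and 154 CPM in the wild type. Its mutant libraries held 175, 192 and 199.8 CPM, and 1 of them lay within the wild-type range. The difference was under an unadjusted p of 0.05 but was not called (log2 0.15, SE 0.0644, edgeR adjusted p = 0.101). It was called without wild-type replicate 2 (0.0487) or without mutant replicate 1 (0.0139). PRIM1, the primase subunit that works beside it, went from 59.1 ± 2.35 to 63.8 ± 2.02 CPM without overlap (log2 0.11). POLD3, of the lagging-strand polymerase, went from 66.7 ± 3.02 to 64.0 ± 3.29 CPM (log2 -0.06).

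TIPIN, a partner of TIMELESS in holding the fork together, had the lowest log2 fold change of the fork genes. It stood at 54.3, 60.03 and 54.6 CPM in the wild type and 47.3, 53.3 and 47.9 CPM in the mutant, without overlap. The difference was under an unadjusted p of 0.05 and was not called (log2 -0.19, SE 0.0779, edgeR adjusted p = 0.0965). CLSPN, the checkpoint adaptor claspin, went from 88.8 ± 6.66 to 92.3 ± 8.55 CPM (log2 0.06).

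In nucleotide supply, the small subunit of ribonucleotide reductase rose. RRM2 stood at 280.2, 297 and 255 CPM in the wild type and 322, 347 and 354 CPM in the mutant. All 3 mutant values exceeded the highest wild-type value, and the difference was 1.23-fold (log2 0.30, SE 0.0567, edgeR adjusted p = 0.000553). RRM1, the large subunit of the same enzyme, stood at 299, 316 and 286 CPM and 309, 352 and 334 CPM, so that 1 mutant library lay within the wild-type range. RRM1 was under an unadjusted p of 0.05 and was not called (log2 0.14, SE 0.0550, edgeR adjusted p = 0.0689). It was called with the replicate block (0.0270), and also when wild-type replicate 2 (0.0390) or mutant replicate 1 (0.00707) was left out. The difference between the 2 subunits was not tested. Thymidylate synthase, TYMS, stood at 251 ± 12.8 and 254 ± 16.2 CPM (log2 0.01), with overlapping libraries.

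UNG, the uracil-DNA glycosylase that removes uracil from DNA, fell. It stood at 88.2, 92.6 and 95.6 CPM in the wild type and 71.0, 74.5 and 73.9 CPM in the mutant. The groups lay apart, and the mutant level was 0.79 of the wild-type level (log2 -0.33, SE 0.0646, edgeR adjusted p = 0.000636). RRM2 and UNG kept their call and direction in all 12 alternative fits. Both have pseudogenes that carry their name, 3 for RRM2 and 2 for UNG, and 11.5 to 12.6% of counted reads were set aside as aligned to more than 1 place. Their counts could therefore miss reads shared with such copies. Exons of RRM2 also overlap those of AC007240.1 on the same strand.

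**Figure D3:**
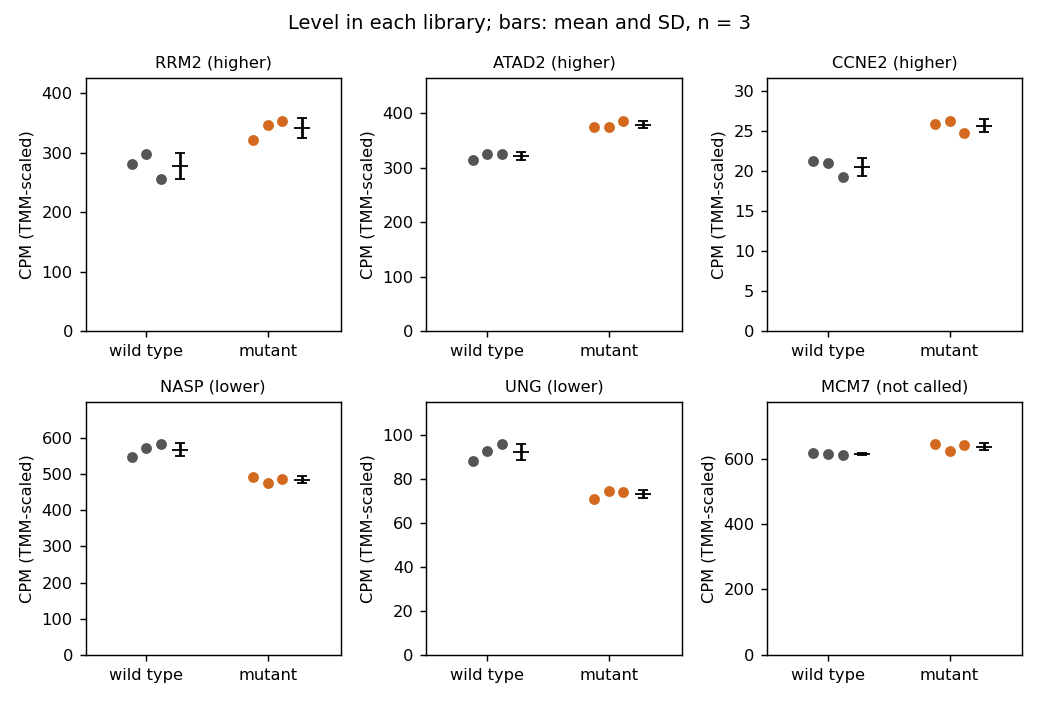
CPM in each library (dots) with mean and SD (n = 3 per genotype) for the 5 called genes and for MCM7 as an abundant gene that was not called, with axes from 0. RRM2, ATAD2 and CCNE2 lie higher and NASP and UNG lower in each mutant library, while MCM7 differs by a log2 of 0.05.

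Among the 5 G1/S regulators, 1 rose, against 11.9% of all tested genes. CCNE2, which encodes cyclin E2, an activator of CDK2 at S phase entry, stood at 21.3, 21.0 and 19.3 CPM in the wild type and 25.9, 26.3 and 24.8 CPM in the mutant. Without overlap, the difference was 1.25-fold (log2 0.32, SE 0.0991, edgeR adjusted p = 0.0238). DESeq2 did not call it (adjusted p = 0.0906), and edgeR did not when wild-type replicate 3 (0.108) or mutant replicate 2 (0.0838) was left out. Exons of CCNE2 overlap those of INTS8 on the other strand. The library kit kept strand, per the labels, but the counting's setting for it is not given in the sources used here. Its paralogue CCNE1, cyclin E1, stood at 30.7, 26.3 and 27.2 CPM and 23.2, 23.5 and 26.8 CPM, and was not called (log2 -0.20, SE 0.100, edgeR adjusted p = 0.175). The difference between the cyclins was not tested.

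E2F1, an activating member of the E2F family, stood at 65.6, 68.2 and 73.7 CPM in the wild type and 69.6, 60.4 and 57.8 CPM in the mutant. Mutant replicate 1 lay inside the wild-type range, and without it E2F1 was called lower (log2 -0.23, edgeR adjusted p = 0.0337), against -0.14 and 0.218 with all libraries. E2F8, a repressive member, went from 37.5 ± 0.305 to 41.7 ± 1.93 CPM without overlap (log2 0.16, edgeR adjusted p = 0.179). DTL, the receptor of the ubiquitin ligase that removes CDT1 in S phase, stood at 189 ± 2.75 and 206 ± 13.3 CPM. It was under an unadjusted p of 0.05 but was not called (log2 0.13, edgeR adjusted p = 0.106).

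Of the 8 genes of histone supply and chromatin, 1 rose and 1 fell, against 11.9% and 9.26% of all tested genes. ATAD2, a bromodomain ATPase of replicating chromatin, stood at 314, 325 and 326 CPM in the wild type and 376, 375 and 387 CPM in the mutant. The 1.18-fold difference exceeded the spread within either genotype (log2 0.24, SE 0.0465, edgeR adjusted p = 0.000689). NASP, a chaperone of histones H3 and H4, fell from 548, 571 and 582 CPM to 492, 475 and 487 CPM. Here too the groups lay apart (log2 -0.23, SE 0.0458, edgeR adjusted p = 0.000935). ATAD2 and NASP were called in each of the 12 alternative fits. Exons of ATAD2 overlap those of IMPDH1P6 on the other strand. Per kilobase, NASP was second only to PCNA in the wild type (169 ± 5.19 CPM) and in place 4 in the mutant (144 ± 2.64 CPM). The wild-type levels of NASP and MCM7, its next neighbour in that order, did not differ beyond their SDs.

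The other chromatin genes were not called. CHAF1B, a subunit of the assembly factor CAF-1, stood at 86.9 ± 4.08 and 93.6 ± 0.925 CPM without overlap (log2 0.11). CDCA7, the partner of the remodeller HELLS, went from 274 ± 6.49 to 295 ± 11.0 CPM, under an unadjusted p of 0.05 (log2 0.11, edgeR adjusted p = 0.132), and was called without mutant replicate 1 (0.0462). HELLS itself went from 86.9 ± 2.42 to 88.2 ± 7.69 CPM (log2 0.02). SLBP, the stem-loop binding protein of histone mRNA, went from 115 ± 12.5 to 123 ± 3.17 CPM (0.10). UBR7 stood at 94.2 ± 4.87 and 103 ± 4.21 CPM (0.13) and WDR76 at 80.6 ± 6.79 and 74.3 ± 3.16 CPM (-0.12). CASP8AP2, a factor of histone mRNA processing that had no row in the authors' table, was at 76.4 ± 6.91 and 84.8 ± 5.04 CPM (log2 0.15, edgeR adjusted p = 0.162). It was called without wild-type replicate 2 (0.0454).

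Of the 5 genes of repair at forks, edgeR, DESeq2 and limma-voom each called 0, and 0 were under an unadjusted p of 0.05. Over all tested genes, edgeR called 21.2%, and 32.6% were under that unadjusted p. A list of 5 genes is too short to be set apart by such counts. BRIP1, a helicase gene, went from 62.1 ± 5.26 to 68.1 ± 3.01 CPM (log2 0.14), and EXO1, a nuclease gene, from 78.4 ± 2.097 to 85.6 ± 5.32 CPM (0.13). USP1, which encodes a deubiquitinase that acts on PCNA, stood at 193 ± 13.8 and 205 ± 5.54 CPM (0.09). RAD51AP1, a gene of homologous recombination, stood at 63.0 ± 6.88 and 63.0 ± 4.71 CPM (0.0039). The helicase gene BLM stood at 72.3 ± 4.66 and 70.8 ± 2.87 CPM (-0.03). Libraries of the 2 genotypes overlapped for all 5, while they lay apart for 35.5% of all tested genes.

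The authors' deposited table, made with DESeq2, gave close values for the 43 genes. Its log2 fold changes differed from those of edgeR by at most 0.0118. Of the 43, the authors' deposited table called 2 higher (RRM2 at 0.29 and ATAD2 at 0.23) and 2 lower (UNG at -0.34 and NASP at -0.24) at an adjusted p under 0.05, against 16.5% of its 13917 genes with an adjusted p. In the authors' deposited table CCNE2 had a log2 fold change of 0.31 and an adjusted p of 0.0975.

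The rest of the replication pathway was read from lists of 106 further genes, of which 105 were tested. By edgeR 15 rose and 2 fell, or 16.2%, against 21.2% of all tested genes. Without wild-type replicate 3 the numbers were 9 and 1, and with the replicate block 4 fell. Over all genes, 1377 rose and 1043 fell without wild-type replicate 3, against 1768 and 1374 with all libraries. The machinery lists had few calls in either direction. Of 18 other licensing and firing genes 1 rose and 1 fell, as did 1 and 1 of 22 other polymerase, clamp and fork genes. GINS3, a partner of GINS2 in the helicase, fell from 28.6 ± 3.27 to 22.1 ± 0.553 CPM (log2 -0.36, edgeR adjusted p = 0.0151). That call was lost without wild-type replicate 2 or 3 (adjusted p up to 0.0885). POLE4, an accessory subunit of the leading-strand polymerase, fell from 19.3 ± 1.75 to 14.1 ± 1.46 CPM (log2 -0.46, edgeR adjusted p = 0.00813).

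Outside the G1/S regulators, the genes that rose in these lists had log2 fold changes from 0.17 (POLE) to 0.50 (BRCA2). TICRR, which helps to fire origins, and POLE, the catalytic subunit beside POLE4, rose by 0.18 and 0.17 on the log2 scale. Their calls were lost in 10 and 8 of the 12 alternative fits, DESeq2 included. CAD, an enzyme of pyrimidine synthesis, was the only called gene of 10 in nucleotide supply (log2 0.18), a call lost without wild-type replicate 1 or 2 or mutant replicate 2 (adjusted p up to 0.125). ASF1B, a histone chaperone, was the only one called of 7 tested in its list (log2 0.26, lost without wild-type replicate 3 at 0.0548). Among 16 fork repair and checkpoint genes, BRCA2 rose from 40.5 ± 1.92 to 57.2 ± 6.57 CPM (log2 0.50, edgeR adjusted p = 0.000215). FANCI, of the Fanconi pathway, rose from 394 ± 13.9 to 482 ± 14.9 CPM (log2 0.29, edgeR adjusted p = 0.000108).

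The last of these lists holds further genes of G1/S control. Of 32 other G1/S regulators, 9 rose and 0 fell by edgeR, or 28.1%. Of all tested genes, 11.9% were higher and 21.2% were called in either direction. These regulators were listed with earlier results of these data known. Without wild-type replicate 3, 6 of the list rose, and the number of all genes that rose went from 1768 to 1377. With an unadjusted p under 0.05, 12 were higher and 1 lower, and DESeq2 called 7 and 0 and limma-voom 9 and 0. Over all tested genes, 32.6% had such an unadjusted p in either direction. DESeq2 called 1287 of all genes higher and 1002 lower, and limma-voom 1745 and 1369. The median log2 fold change of the list was 0.14. The difference between this list and the 43 genes was not tested.

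CCND2, which encodes cyclin D2, an activator of CDK4 and CDK6, stood at 39.3, 38.3 and 37.4 CPM in the wild type. In the mutant it stood at 63.6, 64.5 and 60.7 CPM, all above the wild type, a 1.64-fold difference (log2 0.71, SE 0.0745, edgeR adjusted p = 2.57e-07). CCND1, cyclin D1, rose 1.54-fold from 9.69 ± 1.44 to 14.9 ± 1.01 CPM (edgeR adjusted p = 0.00218). Of the E2F family, the repressor E2F7 rose from 44.6 ± 3.06 to 61.8 ± 4.43 CPM and the activator E2F2 from 97.9 ± 2.63 to 128 ± 5.88 CPM. Their log2 fold changes were 0.47 and 0.39 (edgeR adjusted p = 0.000151 and 4.93e-05). These 4 genes were called in each of the 12 alternative fits.

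The other 5, outside the naming rule and named after their values were seen, were CDK6, the partner of D cyclins (log2 0.37), CDKN1B, which encodes the CDK inhibitor p27 (0.34), E2F3 (0.24), TFDP2 (0.28) and RBL1 (0.28). The calls of CDK6 and CDKN1B held in each alternative fit. E2F3 was lost without wild-type replicate 3 or mutant replicate 2, and TFDP2 and RBL1 were lost with DESeq2 and without several single libraries. CCND3, which encodes the remaining D cyclin, was not called (81.5 ± 5.54 to 84.7 ± 1.46 CPM, log2 0.05, edgeR adjusted p = 0.626).

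**Figure D4:**
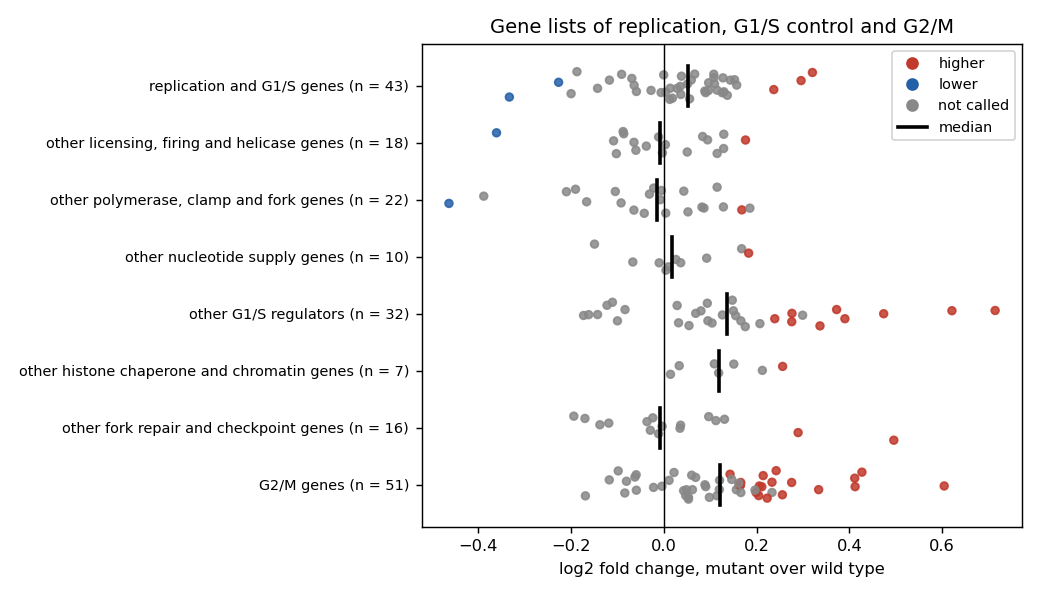
Log2 fold change of mutant over wild type for each tested gene (dot) of the 43 replication and G1/S genes, of 6 lists of other pathway genes and of a G2/M list, with the median as a black bar. Red and blue mark genes that rose and fell, and the medians are 0.05 for the 43 genes, 0.14 for the other G1/S regulators and 0.12 for the G2/M genes.

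The other proliferative programme is that of G2/M. Of 51 tested G2/M genes 19 rose and 0 fell by edgeR, or 37.3%, against 11.9% of all tested genes higher. In either direction 21.2% of all tested genes were called, and 23.7% of those at least as abundant as the lowest of the 43. The G2/M list was chosen with earlier results of these data known. The median log2 fold change of the list was 0.12. With an unadjusted p under 0.05, 26 were higher and 1 lower, and DESeq2 called 15 and 0 and limma-voom 19 and 0. Over all tested genes, 32.6% had such an unadjusted p in either direction. DESeq2 called 1287 of all genes higher and 1002 lower, and limma-voom 1745 and 1369. Between 11 and 12 of the list rose without wild-type replicate 3, mutant replicate 2 or mutant replicate 3. The number of all genes that rose went from 1768 to 1377, 1374 and 1381 in these fits. GAS2L3, a cytoskeletal protein of dividing cells, rose from 55.8 ± 4.18 to 74.2 ± 5.57 CPM (edgeR adjusted p = 4.56e-04). The rule also named MKI67, CENPF and HJURP, with log2 fold changes of 0.60, 0.43 and 0.41. Whether the G2/M list differs from the 43 genes was not tested.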

How the data were processed

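The deposited counts are raw reads per gene in each library, and the authors added a table of mutant over wild type. The submitters' processing notes list TopHat2 2.1.1, HTSeq, DESeq2 and build hg19; their roles and the strand setting used were not given in the sources used here. Values in the authors' deposited table are a signal (mean scaled count), a log2 fold change with its SE, a Wald score, p-values and a mark of other kind. Rows without a gene were left out, and 0 sample columns were unused. Symbols came from that table, otherwise by Ensembl identifier. Exon lengths came from GENCODE v29 (GRCh38), promoters from RefSeq.

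The counts went through edgeR 4.0.16 (R 4.3.3): filterByExpr (14835 genes), TMM, robust quasi-likelihood with genotype as the only term, a two-sided F test and Benjamini-Hochberg adjustment, called under 0.05. Intervals are 95%. CPM is TMM-scaled, with the SD over 3 libraries. The script was tested on simulated data. Alternatives used DESeq2 1.42.0, limma-voom 3.58.1, other scalings, no filter, a replicate block and 1 library left out. Named were all members (called ones with every library), and up to 4 called genes per other list with average log2 CPM of at least 2. The members and lists were chosen with earlier results of these data known.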

Additional observations from a re-analysis of the deposited data

How the results depend on the processing

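Each result was refitted under 12 alternatives. Of 516 values of single genes among the 43, 501 kept their direction and their side of the threshold, or changed sign by less than their own SE without being called. The number of the 43 that rose was 2 to 6 and the number that fell 2 to 3 when 1 library was left out; the numbers were 2 and 2 with DESeq2. Reversals concerned genes never called: CDT1 at -0.0401 without mutant replicate 1 (leave-one-out range -0.0401 to 0.0904), RAD51AP1 at -0.0822 without wild-type replicate 1 (-0.0822 to 0.0781), CLSPN at -0.0287 without mutant replicate 3 (-0.0287 to 0.116), DSCC1 at -0.0955 without wild-type replicate 1 (-0.0955 to 0.11) and HELLS at -0.0595 without mutant replicate 2 (-0.0595 to 0.0594); the cause was not tested. Leaving out 1 library gave 9 to 15 higher and 1 to 3 lower for the other pathway genes and 11 to 23 higher for G2/M.

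Replicate numbers did not pair the libraries: deviations of same-numbered libraries correlated at 0.0763, 0.0898 and -0.116, and not every library correlated best with its own number. With the replicate block, 4 of the 43 rose and 2 fell, 4 other pathway genes fell instead of 2, and 1959 genes rose and 1615 fell instead of 1768 and 1374. Depth limits the low genes most: 3 counts correspond to 0.312 to 0.389 CPM, and intervals were widest for CCNE1 (half-width 0.209 on the log2 scale).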

Other observations

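The called genes of the set lie on different chromosomes, apart from CCNE2 and ATAD2, which both lie on chromosome 8. Of the 20 tested genes that flank the 5 called genes, 2 on each side in the order of GENCODE v29, edgeR called 1 higher and 3 lower. These 4 of 20 are near the 21.2% of all tested genes that were called, so the count sets the flanking genes apart in no way, and their values are given as a description. Both nearest neighbours of NASP on chromosome 1 fell by about as much as NASP itself, the aldehyde reductase gene AKR1A1 by a log2 of -0.23 (SE 0.0618, edgeR adjusted p = 0.0112) and GPBP1L1 by -0.20 (SE 0.0571, edgeR adjusted p = 0.0153). The genes next to these, PRDX1 and TMEM69, were at -0.06 and 0.04 and were not called. Beside UNG, ALKBH2 and ACACB were not called (0.04 and 0.06), and FOXN4 further out rose (1.35, SE 0.328, edgeR adjusted p = 0.00453). Beside RRM2, KLF11 fell (-0.31, edgeR adjusted p = 0.0251), and 0 of the 8 genes around CCNE2 and ATAD2 were called by edgeR. These neighbours were named after their values were seen.

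The 4 members on chromosome 8 (MCM4, CCNE2, DSCC1 and ATAD2) all had log2 fold changes above 0, from 0.03 to 0.32, and 2 of them rose. Of all 43 genes, 31 were above 0, and 11.9% of all tested genes rose. The 4 genes were picked out after their values were seen, and the count was not tested.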
